A study of Rattus norvegicus with 18 samples.

Results

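The genes described here encode the proteins of the cytosolic ribosome in rat testis. They were taken from the deposited expression table as every row whose RefSeq identifier maps to a rat symbol beginning with Rpl or Rps and a digit, or with Rplp or Rpsa. Of 83 such rows, 2 Rps6k kinase rows and 1 pseudogene row were left out. The remaining 80 rows, of 7016 in the table, belong to 79 genes, 48 for the large and 31 for the small subunit, because Rps9 has a coding and a non-coding row. They cover 73 of the 77 standard symbols. Rpl21, Rpl37, Rps15a and Rps27a are not analysed here under those symbols, and 6 genes lie outside the standard list: Rpl22l1, Rpl36al1, Rpl37l1, Rpl39l1, Rps12l4 and Rps4y2.

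Testes of Wistar rats aged 8 weeks were compared between animals under chronic sleep restriction (CSR) and a control group. Poly(A) RNA was sequenced in 3 CSR and 3 control libraries, while the series text speaks of 6 samples in each group, and the 6 CSR and 6 control methylation libraries were not used here. The labels do not give the method or length of the restriction, and nothing in them ties a library to a separate rat, so the p-values reflect the spread among these libraries, which may be technical. Control libraries 1 and 2 carry submitters' codes that differ only in the last digit, and the counts and medians over the members are given with and without them.

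Ribosomal proteins assemble with ribosomal RNA in the nucleolus and are needed in matched amounts, and their messages are among the most abundant in most cells. Many of these messages begin with a C followed by a run of pyrimidines, the terminal oligopyrimidine (TOP) motif, through which translation responds to growth signalling by mTOR. In the testis, genes on the X chromosome are silenced during meiosis, and several X-linked ribosomal protein genes have autosomal relatives that are expressed in male germ cells.

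The start sites of the members were examined first, because the TOP motif is defined there. RefSeq promoter entries (assembly GRCr8) were found for 63 of the 79 genes. A window of 30 bases was read for each, 15 before and 15 from the annotated start. A C at the start followed by at least 4 bases, each C or T, on the strand of the gene, was present in 23 of the 63 members (36.5%) and in 881 of 33469 promoters of the whole table (2.63%). The longest such runs, in Rpl10, Rpl31 and Rpl37a, had 12 bases. The letters CTTTCC, on either strand and at any place in the window, occurred in 15 members (23.8%) and in 2.52% of all promoters. The 2 searches can overlap, and a match is only a description of the letters in the window.

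The following 5 windows belong to small and large subunit members with a run at the start. Rps15 and Rpl31 are among the most abundant members, Rps26 and Rps7 passed the test once control library 3 was left out, and Rpl10 and Rpl31 carry runs of the greatest length found. Capitals mark the run from the annotated start, 5′ to 3′ on the strand given.
Rps15, chr7:10068101-10068130, minus strand: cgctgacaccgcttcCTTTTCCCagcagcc
Rps26, chr7:1643390-1643419, minus strand: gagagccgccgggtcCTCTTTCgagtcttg
Rps7, chr6:50999431-50999460, minus strand: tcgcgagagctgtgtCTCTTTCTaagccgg
Rpl31, chr9:49143096-49143125, plus strand: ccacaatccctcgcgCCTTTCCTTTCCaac
Rpl10, chrX:157205835-157205864, plus strand: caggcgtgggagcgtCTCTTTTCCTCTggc

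The next windows show X-linked members beside their autosomal relatives, and the pair Rpl22 and Rpl22l1, whose values are given further on. Capitals again mark a run from the annotated start, and windows with no capitals hold none at that base.
Rpl39, chrX:121195882-121195911, minus strand: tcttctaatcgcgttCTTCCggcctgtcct
Rpl39l1, chr10:5966607-5966636, minus strand: actgccaggccgtcccgctatcctggtgtg
Rpl36a, chrX:102059434-102059463, plus strand: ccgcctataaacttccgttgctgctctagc
Rpl36al1, chr6:93392244-93392273, minus strand: tccgacttccgctccatccgtccctttcct
Rps4x, chrX:71342907-71342936, minus strand: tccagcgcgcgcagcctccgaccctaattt
Rps4y2, chr4:183000898-183000927, plus strand: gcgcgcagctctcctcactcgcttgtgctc
Rpl22, chr5:168117946-168117975, plus strand: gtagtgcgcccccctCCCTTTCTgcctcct
Rpl22l1, chr2:113683181-113683210, plus strand: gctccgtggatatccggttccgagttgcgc

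Members with a run at the start had a median mean level of 53.5 FPKM (n = 23), against 34.2 FPKM for members with a promoter entry and no run (n = 40). FPKM counts fragments per kilobase of transcript, relative to the size of the library, so levels can be set side by side between transcripts of different length.

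Ribosomal protein transcripts were abundant in all 6 libraries. Their mean over the libraries had a median of 40.3 FPKM and quartiles of 17.5 and 72.8, against a median of 4.0 FPKM over all rows of the table, and 41 of the 80 rows were in the top 10% of the table. Levels ran from 0.439 FPKM for the non-coding Rps9 row to 577 FPKM for Rpl39l1, so proteins that the ribosome holds in matched amounts had transcripts that differed widely. By level, 13 rows lay above 100 FPKM, 44 between 20 and 100, 15 between 5 and 20, and 8 below 5. The medians of the large (39.5 FPKM) and small (41.5 FPKM) subunit rows lay close together.

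The 8 most abundant members included Rpl39l1, Rps15, Rps29, Rpl31, Rpl36, Rps7 and Rpl41, the last of them encoding a very short basic peptide of the large subunit. Rpl39l1 had 689, 648 and 589 FPKM in CSR libraries 1 to 3, and 474, 450 and 613 FPKM in control libraries 1 to 3. Only control library 3 reached the CSR values. The 5 rows with the lowest means were Rpl27, Rpl39, Rpl6, Rpl27a and the non-coding Rps9 row. Rpl6, a large subunit protein, had 0.397, 0.454 and 0.441 FPKM in CSR and 2.26, 2.57 and 0.254 FPKM in the controls. The first 2 controls were thus above the other 4 libraries, and Rpl6 and the non-coding Rps9 row did not reach 1 FPKM in at least 3 libraries, which left 78 members for the test.

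**Figure D1:**
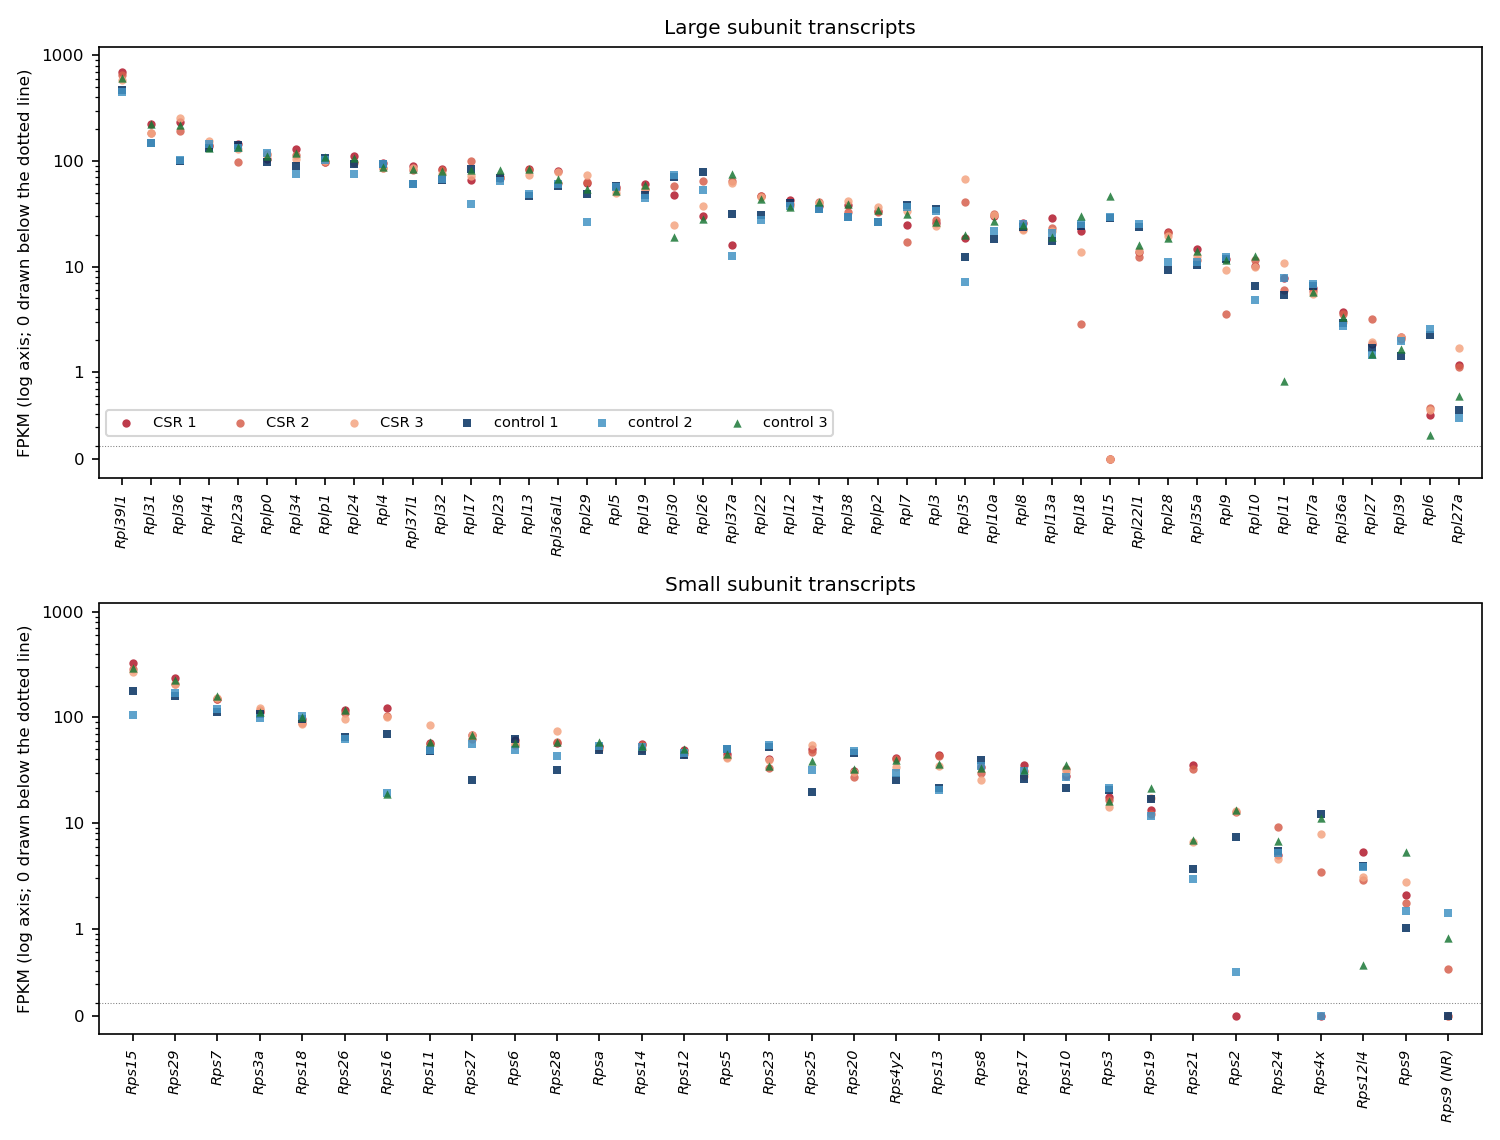
FPKM (log axis) of 79 of the 80 ribosomal protein rows, large subunit above and small subunit below, with 1 point for each library (circles CSR 1 to 3, squares control 1 and 2, triangle control 3) and values of 0 drawn below the dotted line. In most rows the 6 points lie within 2 times of each other, and Rpl15 has its 3 CSR points at 0.

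Most members were steady between libraries. Of the 76 rows above 0 in all libraries, 50 had their highest library within 2 times their lowest, and 10 had a range over 4 times: Rps16, Rpl37a, Rpl35, Rpl18, Rps21, Rpl11, Rps12l4, the coding Rps9 row, Rpl6 and Rpl27a. A further 4 rows were listed at 0 in some library: Rpl15, Rps2, Rps4x and the non-coding Rps9 row. An exact 0 beside high values in other libraries can be a failed estimate of the transcript as well as a low level, and the table gives no counts to tell these apart. Ribosomal protein genes also have many copies in the genome. The RefSeq gene table lists a median of 15 like-named copies for a member and 36 for Rps2. They were matched by name alone, and the likeness of their sequences was not measured. For members that are themselves named as copies, such as Rpl39l1, the count includes the member. How reads that match several copies were assigned is not given in the sources used here. Values of members with 0 in some libraries are therefore uncertain, and the unknown assignment of reads bears on the levels of other members with copies too.

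The comparison of CSR with control asked which ribosomal protein transcripts differed between the groups. Rpl15, a large subunit protein, was the member that passed the test, and it was lower in CSR. It was listed at 0 FPKM in CSR libraries 1, 2 and 3, and at 29.1, 29.3 and 46.7 FPKM in control libraries 1, 2 and 3. Rpl15 met the filter of 1 FPKM in at least 3 libraries through the controls alone, so its entry and its direction are not independent. The groups did not overlap, the adjusted p was 0.00168 (limma on log2(FPKM + 1), two-sided, Benjamini-Hochberg over all 5657 transcripts tested), and no fold is given against libraries listed at 0. The call was lost with the replicate number as a block (limma adjusted p = 0.0765), and the 3 values of 0 carry the doubt about failed estimates described above. Rpl15 has 15 like-named copies, which is the median for a member, and the part of copies in these zeros was not tested.

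No member passed in the direction of higher in CSR, and the smallest adjusted p there was 0.313, for Rps16. By the same limma fit 1 of 78 members was called, against 0.442% of all tested transcripts in either direction and 0.212% in the lower direction. At an unadjusted limma p under 0.05 there were 15 of the 78 members, 12 higher and 3 lower. Of all 5657 tested transcripts 748 (13.2%) were under it, 334 higher and 414 lower.

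As values, 54 of the 78 members had a positive difference (CSR minus control) and 24 a negative one. That is 69.2% positive, against 44.0% of all tested transcripts. The members were more abundant than most of these transcripts, and here and below the shares were not compared at matched levels. Their median difference was 0.15 on the log2(FPKM + 1) scale (quartiles -0.05 and 0.36), against -0.06 for all tested transcripts. With each library scaled to the same total over the table, as TPM, 43 members were positive, and the medians were 0.050 for the members and -0.19 for all transcripts. Large subunit members had 32 positive and 15 negative differences with a median of 0.17, and small subunit members 22 and 9 with a median of 0.08. Sizes were mostly small, with 39 members within 0.25 of no difference and 5 beyond 1. In bulk tissue, fewer cells of a type and less RNA per cell cannot be told apart.

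In 11 members (14.1%) all 3 CSR libraries lay above all 3 controls, a pattern seen in 8.96% of all tested transcripts. In 6 members (7.69%) all CSR libraries lay below, against 12.6% of all tested transcripts.

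The 6 largest positive differences belonged to Rps21, Rps16, Rpl35, Rpl11, Rpl36 and Rps25, and none passed the adjusted threshold. Rps16, a small subunit protein, had 123, 103 and 100 FPKM in CSR and 70.3, 19.4 and 18.8 FPKM in the controls. The groups did not overlap, but control library 1 stood well above the other 2 controls, and the difference of 1.84 (SE 0.50, n = 3 and 3) had a limma adjusted p of 0.313. Without control library 1 it was 2.45 with a limma adjusted p of 0.00646, which passed.

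Rps21 had 35.2, 32.3 and 6.66 FPKM in CSR and 3.69, 2.95 and 6.85 FPKM in the controls. CSR library 3 fell within the range of the controls, and the difference of 2.00 had an SE of 0.64. Rpl35 had 18.6, 40.9 and 67.7 FPKM in CSR and 12.3, 7.11 and 20.1 FPKM in the controls, so that CSR library 1 lay below control library 3. Rps25 had 50.03, 47.2 and 55.2 FPKM against 19.8, 31.9 and 38.8 FPKM. Its groups did not overlap, and its difference was 0.78 (SE 0.24, limma adjusted p = 0.363). Against control library 3 alone it was 0.38 (limma adjusted p = 0.831).

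The 6 largest negative differences belonged to Rpl15, Rpl18, Rps4x, Rpl22l1, Rpl9 and Rpl7. Rpl18 had 21.8, 2.86 and 13.8 FPKM in CSR and 24.1, 25.2 and 30.3 FPKM in the controls. All CSR values were below the controls, but they differed from each other by more than CSR library 1 differed from control library 1, and the limma adjusted p was 0.394. Rpl9 had 11.8, 3.55 and 9.26 FPKM in CSR and 11.7, 12.3 and 11.5 FPKM in the controls, and its difference rested on CSR libraries 2 and 3. Rpl7 had 24.8, 17.2 and 33.2 FPKM in CSR and 38.5, 36.6 and 31.6 FPKM in the controls, and the groups overlapped.

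Values of many members differed between control libraries 1 and 2 on the one side and control library 3 with the CSR libraries on the other, a split that follows the submitters' codes and was examined with the values known. Rps26, a small subunit protein, had 119, 109 and 97.7 FPKM in CSR, 65.2 and 61.9 FPKM in control libraries 1 and 2, and 118 FPKM in control library 3. Rpl13 of the large subunit had 84.4, 82.0 and 73.2 FPKM in CSR, 46.5 and 48.3 FPKM in control libraries 1 and 2, and 83.2 FPKM in control library 3. In both, control library 3 lay inside the range of the CSR libraries and the other 2 controls lay far below it.

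The pattern was common among the members. In 38 of the 78 (48.7%) control libraries 1 and 2 were both below the other 4 libraries, against 17.7% of all tested transcripts. In 10 members (12.8%) they were both above, against 22.8% of all tested transcripts. These counts use FPKM as deposited. The summed FPKM of the table was also lowest in control libraries 1 and 2, and the counts were not repeated after scaling. Control library 1 was the lowest of the 6 libraries for 27 members and control library 2 for 24, and the highest was most often CSR library 1, for 28. The 38 members comprised 24 of the large and 14 of the small subunit. Of members with a run of pyrimidines at the start, 15 of 23 had control libraries 1 and 2 below the rest, and of those without, 17 of 40.

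**Figure D2:**
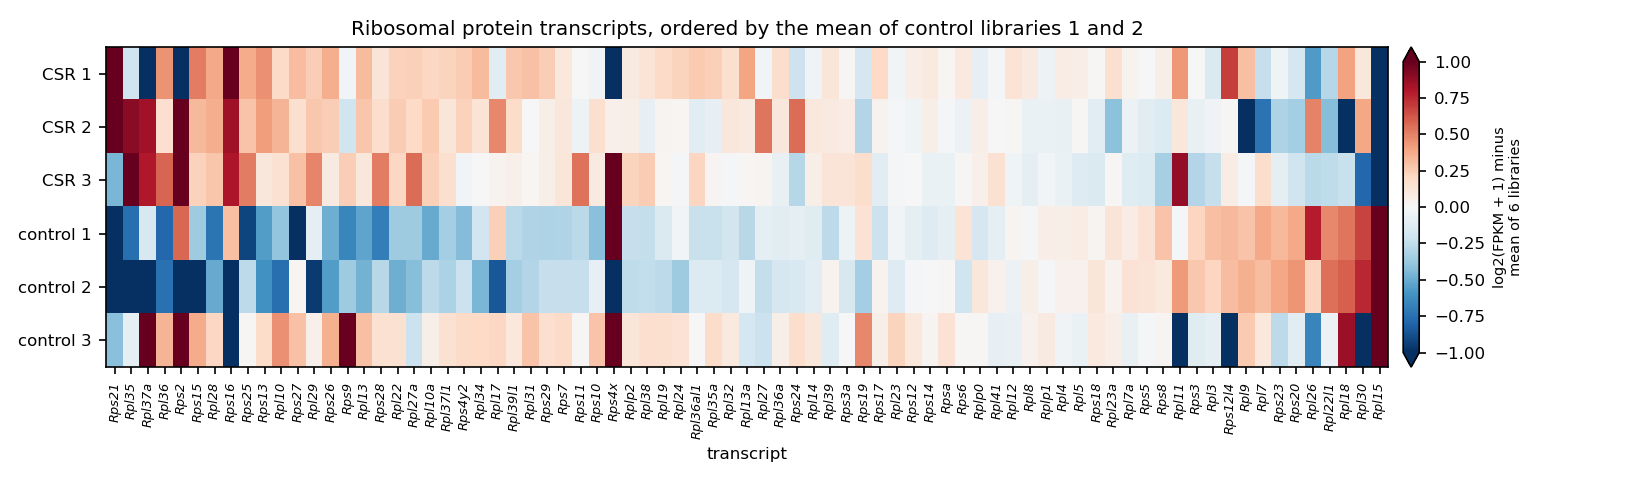
Heat map of log2(FPKM + 1) minus the mean of the 6 libraries, for 77 of the 78 tested ribosomal protein transcripts (columns, ordered by the mean deviation of control libraries 1 and 2) in each library (rows), with colours limited to 1 in either direction. The rows of control libraries 1 and 2 are mostly blue toward the left and mostly red toward the right.

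Distances between libraries over the members showed the same arrangement. The median absolute difference over the members was 0.0897 on the log2 scale between control libraries 1 and 2, the smallest of the 15 pairs of libraries. Pairs of CSR libraries differed by 0.139 to 0.173, and control library 3 differed from them by 0.124 to 0.176. Control library 3 differed from control libraries 1 and 2 by 0.348 and 0.371, within the range of 0.329 to 0.419 between those 2 libraries and CSR. Over all tested transcripts, control libraries 1 and 2 were also the closest pair (0.164), and control library 3 lay 0.187 to 0.237 from the CSR libraries. There control library 3 differed from control libraries 1 and 2 by 0.281 and 0.2805. Unlike for the members, this was below the range of 0.330 to 0.404 between those 2 libraries and CSR. The median SD within a group was 0.13 in CSR and 0.25 in control for the members, against 0.21 in each group for all tested transcripts.

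The summed level of the members was 5372, 5112 and 5138 FPKM in CSR libraries 1 to 3 and 4253, 4034 and 5170 FPKM in control libraries 1 to 3. As a share of the summed FPKM of the table it was 3.67%, 3.41% and 3.51% in CSR and 3.27%, 2.98% and 3.54% in the controls. Both measures had control libraries 1 and 2 below the other 4 libraries, and control library 3 was within the range of CSR. The ratio of large to small subunit sums was 1.69, 1.74 and 1.77 in CSR and 1.89, 1.87 and 1.80 in the controls. Every control ratio lay above CSR, that of control library 3 by little. Single rows such as Rps16 and Rpl15 weigh in these sums, and the ratio was not computed without them. The median differences given above, 0.17 for large and 0.08 for small subunit members, were in the other order.

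Without control library 3, limma called 13 members, 10 higher and 3 lower in CSR. The background of the same fit was 2.99% of all tested transcripts higher and 1.59% lower. The higher members included Rpl36, Rpl28, Rps13, Rps26, Rpl13, Rpl22, Rpl10a, Rpl37l1 and Rps7. Besides Rpl15, the lower members were Rpl22l1 and Rps20. Against control library 3 alone, the called member was Rpl15, and 36 of 78 members (46.2%) had a positive difference, against 41.0% of all tested transcripts. The median member difference was 0.26 against control libraries 1 and 2 and -0.018 against control library 3, while that of all transcripts was -0.07 and -0.05. These comparisons use the same CSR libraries, and in the second the lone control is assumed to vary like the CSR libraries. The fit without control library 3 takes control libraries 1 and 2, the closest pair, as replicates. Nothing ties them to separate rats, so their spread may be technical and the p-values of that fit too small.

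**Figure D3:**
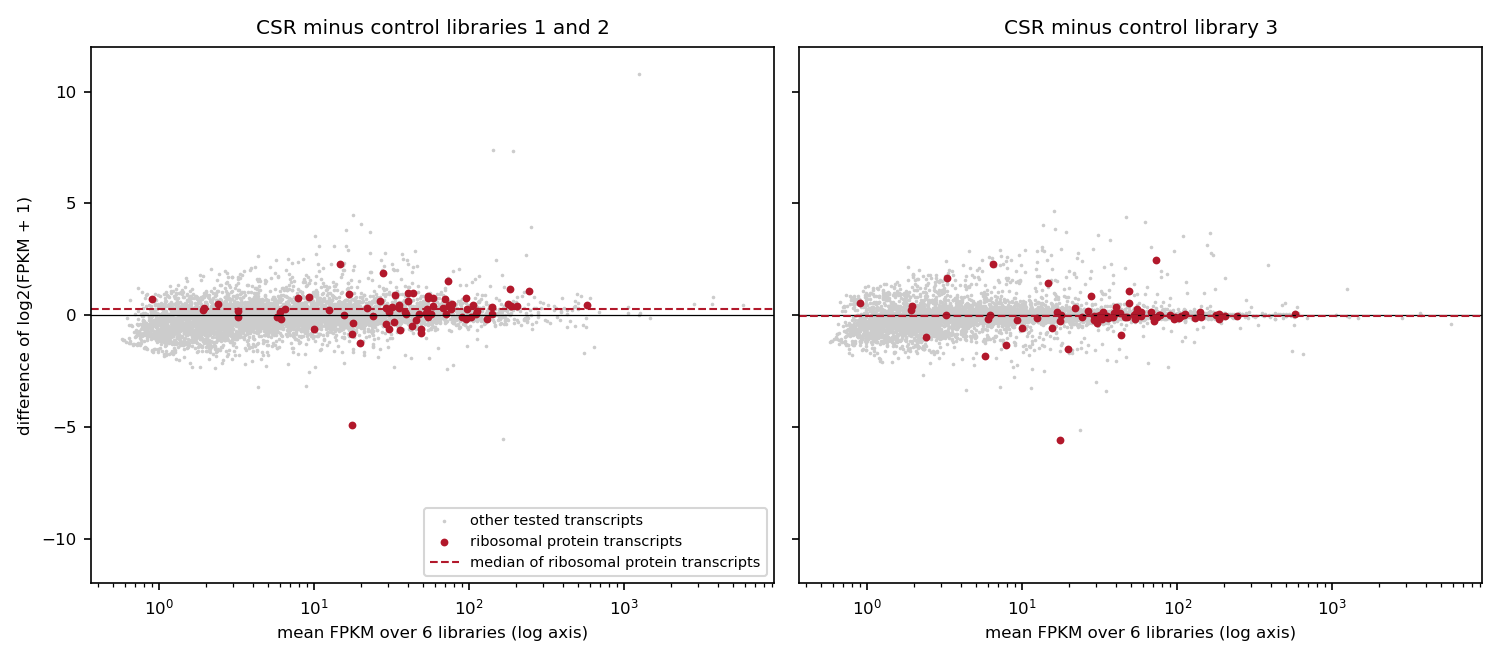
Difference of log2(FPKM + 1) against the mean FPKM over the 6 libraries (log axis) for 5657 tested transcripts (grey) and the 78 ribosomal protein transcripts (red), with the median of the latter as a dashed line. On the left, CSR is set against control libraries 1 and 2 and the dashed line is at 0.26, and on the right, against control library 3, it is at -0.018.

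Members called without control library 3, with the doubt about control libraries 1 and 2 as replicates, are given here with the values of all libraries. Those not named already (Rpl28, Rps13, Rpl37l1, Rpl10a and Rps20) were chosen after their values were seen. Rpl36 had 235, 194 and 258 FPKM in CSR, 99.5 and 102 FPKM in control libraries 1 and 2, and 218 FPKM in control library 3. The difference from control libraries 1 and 2 was 1.16 (SE 0.13, limma adjusted p = 0.0291), and from all 3 controls it was 0.80 (SE 0.32, adjusted p = 0.372). Control library 3 lay between CSR libraries 2 and 1, so the groups overlapped.

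Rpl28 had 21.1, 20.8 and 19.5 FPKM in CSR, and 9.21, 10.98 and 18.6 FPKM in the controls. Rps13 had 44.2, 43.1 and 34.7 FPKM in CSR, and 21.4, 20.7 and 36.4 FPKM in the controls. Control library 3 was just below the CSR range for Rpl28 and inside it for Rps13. Their differences from control libraries 1 and 2 were 0.96 and 0.91.

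Rps7, needed for the processing of small subunit RNA, had 151, 151 and 153 FPKM in CSR and 113, 119 and 160 FPKM in the controls. Rpl10a had 30.3, 31.4 and 30.9 FPKM in CSR and 18.1, 21.6 and 27.2 FPKM in the controls. Within CSR both varied little, and control library 3 was above the CSR range for Rps7 and below it for Rpl10a. Rpl37l1, which carries Rpl37 as a synonym in the RefSeq table, had 83.0 to 89.0 FPKM in CSR, 60.1 and 60.8 FPKM in control libraries 1 and 2, and 84.5 FPKM in control library 3. Rps20 was the small subunit member in the opposite direction, with 30.9, 27.4 and 30.3 FPKM in CSR and 45.7, 47.9 and 32.5 FPKM in the controls, and its control library 3 was again the nearest to CSR.

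Of the most abundant members, Rps15 had 325, 286 and 267 FPKM in CSR and 177, 106 and 295 FPKM in the controls, a difference of 0.72 (SE 0.36, limma adjusted p = 0.396). Rps29 had 238, 209 and 209 FPKM in CSR and 161, 170 and 225 FPKM in the controls. Rpl31 had 225, 183 and 185 FPKM in CSR and 148, 149 and 223 FPKM in the controls. In all 3, control libraries 1 and 2 were the lowest and control library 3 was inside the range of CSR. Rpl41 was an exception, with 138, 141 and 156 FPKM in CSR and 132, 145 and 132 FPKM in the controls, and no library stood apart.

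The pair Rpl22 and Rpl22l1 had opposite orders of the libraries. Rpl22 and its paralog encode RNA-binding large subunit proteins, and in mice Rpl22 is known to restrain Rpl22l1. Rpl22 had 46.3, 46.9 and 45.5 FPKM in CSR and 30.5, 27.8 and 43.7 FPKM in the controls. Rpl22l1 had 13.6, 12.2 and 13.9 FPKM in CSR and 23.8, 25.04 and 16.0 FPKM in the controls. For both genes the groups did not overlap, and control library 3 was the nearest to CSR. The ratio of Rpl22l1 to Rpl22 was 0.294, 0.260 and 0.307 in CSR and 0.781, 0.902 and 0.367 in the controls.

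Neither gene passed over all 3 controls, with a difference of 0.46 (SE 0.17, limma adjusted p = 0.367) for Rpl22 and -0.64 (SE 0.18, limma adjusted p = 0.343) for Rpl22l1. Without control library 3 both passed, at 0.65 (limma adjusted p = 0.0276) and -0.84 (limma adjusted p = 0.0291).

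X-linked members were low beside the rest. Rpl10, Rpl36a, Rpl39 and Rps4x, placed on the X chromosome in GRCr8, had a median mean level of 4.48 FPKM, against 43.0 FPKM for the other rows. The unknown assignment of reads among copies, described above, bears on these levels and on the ratios given below. Rpl10, which helps to complete the large subunit, had 10.2, 11.5 and 9.96 FPKM in CSR and 6.48, 4.85 and 12.5 FPKM in the controls. As in many members, control libraries 1 and 2 were the lowest.

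Rpl39, a short protein of the exit tunnel, had 2.15, 2.08 and 2.16 FPKM in CSR and 1.41, 1.96 and 1.66 FPKM in the controls. Its groups did not overlap, but the difference of 0.23 (SE 0.18) had a limma adjusted p of 0.53. Its relative Rpl39l1, which carries Rpl39l as a synonym and is known in mice as the male germ cell form, was between 229 and 370 times higher in the same libraries. The difference of Rpl39l1 between the groups was 0.34 (SE 0.15, limma adjusted p = 0.378).

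Rpl36a had 2.73 to 3.74 FPKM over the 6 libraries, and Rpl36al1 57.3 to 80.8 FPKM. The relative was 17.6 to 26.3 times higher, with overlapping groups. Rps4x was listed at 0, 3.46 and 7.90 FPKM in CSR and at 12.1, 0 and 11.1 FPKM in the controls, with a 0 in each group. Rps4y2, placed on chromosome 4 in GRCr8 despite its name, had 41.7, 40.8 and 34.0 FPKM in CSR and 25.4, 29.8 and 39.8 FPKM in the controls, above Rps4x in all 6 libraries.

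**Figure D4:**
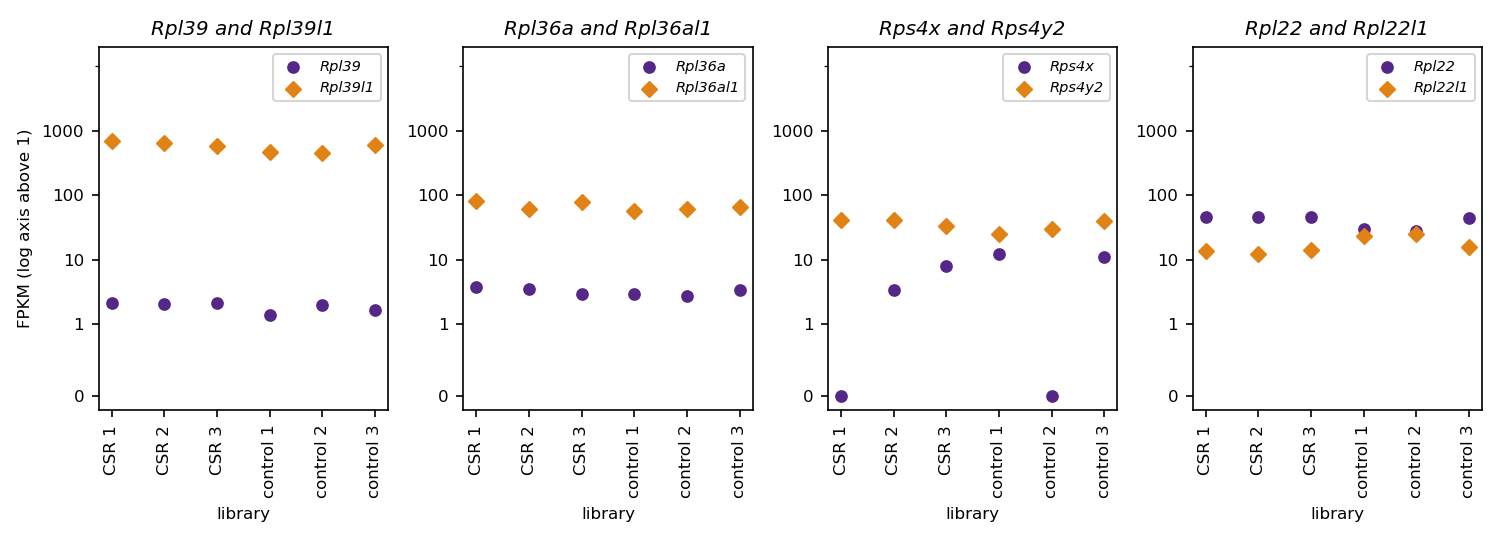
FPKM in each library (axis logarithmic above 1) of 4 ribosomal protein genes (purple circles) and their relatives (orange diamonds). Rpl39l1, Rpl36al1 and Rps4y2 lie above Rpl39, Rpl36a and Rps4x in every library, and Rpl22 and Rpl22l1 lie nearest to each other in control libraries 1 and 2.

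The stalk of the large subunit, formed by Rplp0 with Rplp1 and Rplp2, recruits the GTPases of translation. Rplp0 had 105, 116 and 115 FPKM in CSR and 98.6, 120 and 112 FPKM in the controls, and Rplp1 had 98.3, 97.4 and 100.3 FPKM in CSR and 107, 101.4 and 109 FPKM in the controls. Rplp2 had 33.6, 32.9 and 36.9 FPKM in CSR and 26.7, 26.3 and 34.3 FPKM in the controls. Rplp2 thus had control libraries 1 and 2 lowest, which its partners did not, and the CSR libraries were all below the controls for Rplp1 by a difference of -0.10 (SE 0.07, limma adjusted p = 0.509).

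Rpl5 and Rpl11 bind the 5S ribosomal RNA and, when not in ribosomes, the p53 regulator Mdm2. Rpl5 was steady, at 56.9, 54.8 and 49.6 FPKM in CSR and 57.4, 56.1 and 52.0 FPKM in the controls. Rpl11 had 7.75, 6.00 and 10.9 FPKM in CSR and 5.42, 7.72 and 0.819 FPKM in the controls, and its difference of 0.95 (SE 0.60) rested on control library 3, being 0.27 without it. Rpl3, at the peptidyl transferase centre, had 25.7, 27.8 and 24.3 FPKM in CSR and 35.4, 33.3 and 26.6 FPKM in the controls.

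Among small subunit members, Rps6, the target of S6 kinase, had 60.6, 54.4 and 57.1 FPKM in CSR and 62.5, 49.1 and 57.1 FPKM in the controls. Rpsa, the laminin receptor protein of the small subunit, had 53.9, 52.5 and 50.7 FPKM in CSR and 49.5, 53.5 and 58.9 FPKM in the controls. The groups overlapped in both. Rps27 had 62.1 to 68.7 FPKM in CSR and 25.7, 56.1 and 68.3 FPKM in the controls, where control library 1 alone stood apart. Rps2 was listed at 0, 12.8 and 13.1 FPKM in CSR and at 7.42, 0.390 and 13.4 FPKM in the controls, with a low value in each group.

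Ribosomal proteins with other names included Fau and Rack1, and neither passed. The main Fau row, whose product is processed to a small subunit protein, had 80.5, 74.8 and 75.3 FPKM in CSR and 69.4, 71.2 and 84.0 FPKM in the controls. Rack1, a scaffold on the small subunit, had 14.5, 13.9 and 12.5 FPKM in CSR and 17.9, 18.6 and 13.4 FPKM in the controls.

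Lists of other genes of ribosome production were set beside the members. Of 47 tested nucleolar and assembly factors 21 were positive and 26 negative, with a median difference of -0.08 and 1 called, higher. That was Ddx52, an RNA helicase of small subunit processing, with 7.58, 4.87 and 6.33 FPKM in CSR and 0.763, 0.850 and 0.801 FPKM in the controls (difference 1.99, SE 0.20, limma adjusted p = 0.0269). All its controls were under 1 FPKM, so Ddx52 met the filter through CSR alone, and its entry and direction are not independent. Its groups did not overlap, and the difference was also 1.99 against control library 3 alone, where it did not pass (limma adjusted p = 0.288). The call was also lost on leaving out CSR library 1 or 3 or control library 1 or 2, with the replicate block, with control libraries 1 and 2 averaged, and with the filter of 1 FPKM in all 6 libraries. Npm1 and Gnl2, the most abundant of this list, had differences of 0.13 and 0.16.

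None of 55 tested mitochondrial ribosomal protein transcripts was called by limma, with 29 positive, 26 negative and a median of 0.02, and 4 were at an unadjusted p under 0.05. In 12 of the 55 (21.8%) control libraries 1 and 2 were both below the rest, near the 17.7% of all tested transcripts, and the difference from the cytosolic members was not tested. Of 19 transcripts of the RNA polymerase I and III machinery, which makes ribosomal and transfer RNA, 4 were positive and 15 negative, with a median of -0.32. Several of the negative rows were listed at 0 in CSR libraries, and the doubt about failed estimates described above holds for them. None passed, and 4 were at an unadjusted p under 0.05.

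Of 14 other TOP messages, 5 were positive and 9 negative, with a median of -0.04 and none called by limma, and 3 were at an unadjusted p under 0.05. Eef2, the translocase of elongation, had 172, 169 and 164 FPKM in CSR and 196, 201 and 172 FPKM in the controls. Pabpc1, which binds poly(A) tails, had 30.7, 687 and 835 FPKM in CSR and 808, 631 and 863 FPKM in the controls, with CSR library 1 alone low. In 3 of the 14 (21.4%) control libraries 1 and 2 were both below the rest, near the 17.7% of all tested transcripts.

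Of 9 TOP and growth regulators 5 were positive, with a median of 0.09, of 7 ribosomal protein chaperones 3 with a median of -0.05, and of 10 ribosome stress and p53 genes 3 with a median of -0.21. No transcript of these 3 lists passed by limma, and 1, 2 and 0 of them were at an unadjusted p under 0.05. Nap1l1, a histone and ribosomal protein chaperone, had 43.7, 49.1 and 44.9 FPKM in CSR and 0.542, 28.6 and 5.05 FPKM in the controls, which differed widely from each other, and its limma adjusted p was 0.363.

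Marker transcripts of spermatids differed in part along the same split. Of 13 elongating spermatid rows, none was at 0 in any library, and their summed level was 20797 to 24055 FPKM in CSR, 13378 and 14963 FPKM in control libraries 1 and 2, and 22929 FPKM in control library 3. In 7 of the 13 (54%) control libraries 1 and 2 were both below the rest, against 17.7% of all tested transcripts. Hspb9 had both above, but its control library 3 also lay above all CSR libraries. The protamine Prm1 had 3029, 2572 and 968 FPKM in CSR and 0.0934, 0.0981 and 877 FPKM in the controls, while the transition protein Tnp1 lay between 3903 and 7730 FPKM in the 6 libraries. Round spermatid markers (10 rows) summed to 617 to 648 FPKM in CSR and 493, 460 and 591 FPKM in the controls, with 1 Crem row at 0 in CSR library 3. Of these rows, 4 (40%) had control libraries 1 and 2 both below the rest, among them the abundant Tex36, while Spaca1 and Zpbp had both above. By limma 1 of the 10 rows was called, higher in CSR, against 0.442% of all tested transcripts in either direction. It did not follow the split, since its control library 3 lay between control libraries 1 and 2. The sums of both lists, like that of the members, were lowest in control libraries 1 and 2, and the part of these cells in the member values was not tested.

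Sums of the other lists did not follow the split. Spermatocyte markers (10 rows) summed to 259 to 313 FPKM in CSR and 198 to 293 FPKM in the controls, with Meiob and Mlh3 at 0 in CSR libraries. Spermatogonial markers (3 rows) summed to 37.9 to 47.5 FPKM and 34.6 to 48.1 FPKM, and Sertoli cell markers (9 rows) to 128 to 149 FPKM and 156 to 162 FPKM, with Gata4 at 0 in 2 libraries. Leydig cell markers (6 rows) summed to 76.8 to 128 FPKM and 81.0 to 103 FPKM, and peritubular and stromal markers (10 rows) to 27.0 to 34.2 FPKM and 29.6 to 35.5 FPKM, with Col1a1 at 0 in the 3 CSR libraries. Macrophage markers (6 rows) summed to 8.74 to 11.7 FPKM in CSR and 12.1 to 17.0 FPKM in the controls, with all 4 tested rows negative and Cd68, C1qa and C1qb each at 0 in some CSR library. Blood markers (4 rows) summed to 3.02 to 25.5 FPKM in CSR and 6.65 to 30.0 FPKM in the controls.

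The libraries also differed in rows listed at 0, with 1000 to 1415 of the 7016 rows in CSR and 275 to 423 in the controls, and Rpl15 is among the rows at 0 in all 3 CSR libraries. The depth of the libraries is unknown, since the FPKM values show no steps of whole reads, and the part of depth in these zeros was not tested. The summed FPKM of the table was 146497 to 150040 in CSR, 130081 and 135270 in control libraries 1 and 2, and 145923 in control library 3, while the median row was between 3.69 and 3.97 FPKM in every library.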

How the data were processed

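Testis RNA of 3 CSR and 3 control libraries was used. The authors deposited FPKM values for RefSeq transcripts, 1 column for each library per the file headers. The submitters' processing notes name StringTie, HISAT2, Trimmomatic and rn6, while tool versions, settings and how rows were selected were not given in the sources used here. Symbols came from the RefSeq gene table of GRCr8, which matched 6911 rows and left 105. Methylation data were not used here.

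The 5657 transcripts that reached 1 FPKM in 3 or more libraries were tested as log2(FPKM + 1) with limma 3.58.1 in R 4.3.3, 2 groups, mean-variance trend, two-sided, Benjamini-Hochberg adjustment and a threshold of 0.05. Differences are CSR minus control on that scale, where changes of low transcripts appear smaller than they are. The fit was checked on simulated data with independent normal noise. These held no rows set to 0 and no closely matched pair of libraries, so the check does not cover those features. Replicate numbers were taken from the labels.

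Members, lists and tests were chosen with earlier results of these data known. Named members are those called, the 6 largest differences in each direction, the 8 highest and 5 lowest means, those at 0 in any library, and fixed members (stalk, 5S-binding and head proteins, Rps6, Rps27, Rps4x and paralog pairs), with the called and up to 2 most abundant genes of each other list. Rps4y2 and the members called without control library 3 were added with their values known. Alternatives changed the pseudocount, filter, scaling, variance model, block and libraries. The fit against control library 3 alone and the count with 1 transcript for each gene were added after seeing the data. Some members and marker genes are not reported here by name.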

Additional observations from a re-analysis of the deposited data

How the results depend on the processing

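Rpl15 stayed past the threshold in 16 of its 17 alternatives, with limma adjusted p from 0.000839 to 0.0765, and the filter of 1 FPKM in all 6 libraries removed it, leaving 0 members called. The replicate block left 0 members, 0 of all transcripts and 0 assembly factors called. Whether the replicate numbers pair the libraries is not known. Deviations from the group means correlated by 0.0323, 0.00899 and 0.0418 for equal numbers, and by -0.0642 to 0.0345 for unequal ones. The highest value was that of CSR library 3 with control library 3, while CSR library 2 correlated best with control library 1 (0.0345). Correlations this small, with 3 libraries in a group, cannot decide about pairing. Leaving out each library in turn gave 1 to 13 members and 4 to 259 of all transcripts called, against 1 and 25. The fewest came without control library 2 and the most without control library 3, and 20, 14, 7 and 8 were called without CSR libraries 1, 2 and 3 and control library 1. It gave a member median of 0.10 to 0.26, against 0.15, and 49 to 56 positive members. All transcripts called were 11 with a pseudocount of 0.1, 10 with 1 FPKM in all 6 libraries, 11 with TPM scaling, 77 without the trend, 7 with control libraries 1 and 2 averaged, and 16 against control library 3 alone, where the member median was -0.018. In the other lists, calls became 1 of the RNA polymerase machinery without the trend, 0 to 4 mitochondrial ribosomal proteins and 0 to 1 chaperones on leaving out libraries, the highest without control library 3, and for assembly factors 0 with 1 FPKM in all 6 libraries, 3 without the trend, 0 with control libraries 1 and 2 averaged, and 0 to 3 on leaving out libraries, with Ddx52 lost without CSR libraries 1 or 3 or control libraries 1 or 2. No called difference changed sign, and the causes of these changes were not tested. The depth of the libraries is unknown, so no limit of detection is given.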
